A study of Homo sapiens with 18 samples.

Results

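Chromatin accessibility was described at 9 genes of the transforming growth factor-β (TGF-β) pathway in 6 established ovarian cancer cell lines. The genes were the ligands TGFB1 and TGFB2, the receptors TGFBR1 and TGFBR2, the signal carrier SMAD3, the inhibitor SMAD7, the secreted target TGFBI, the matrix protein THBS1 and the adaptor TGFB1I1. A window was taken when it overlapped the GENCODE span of a gene in GRCh37 (hg19) extended by 10 kb on each side, which gave 93 of the 89428 windows of the deposited table. Of these, 26 lay at a start of a member gene (promoter windows, which touch the stretch from 1 kb before to 100 bp after a start), 3 lay at the start of a neighbouring gene and 64 were distal. SMAD3 held 22 windows, TGFB1 and TGFBI held 14 each, TGFBR2 held 12, TGFB2 held 10, TGFB1I1 held 8, SMAD7 held 7, THBS1 held 4 and TGFBR1 held 2. TGFB1I1 was chosen for an exon window that had been called between resistant and sensitive lines in these same libraries, and THBS1 for its expression in these lines, with its promoter values already known. Both are therefore described without any test, and the tests below cover the 81 windows of the other 7 genes.

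The assay was ATAC-seq, in which the Tn5 transposase inserts sequencing adapters into open chromatin. The lines formed 3 pairs, each of a line labelled sensitive and a line labelled resistant to platinum, with 3 replicate libraries per line and 18 in all. A2780 was paired with CP70, which was selected from it in culture (both are labelled endometrial/ovarian cancer), PEA1 with PEA2 and PEO1 with PEO4. The PEA lines and the PEO lines were each isolated from a patient with high-grade serous ovarian cancer, before and after resistance had developed in the clinic. All 6 lines were grown in RPMI-1640 with glutamine and fetal bovine serum, and although the design text of the series names cisplatinum treatment, the labels of these libraries give no drug, dose or time. Each condition was a single cell line, so a difference within a pair is a difference between those 2 lines.

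TGF-β is secreted in a latent complex bound to the matrix, and thrombospondin-1, the product of THBS1, is among the proteins that can release it. The active ligand assembles the type II receptor TGFBR2 with the type I receptor TGFBR1, which phosphorylates SMAD3 and its partner SMAD2 for entry into the nucleus, and SMAD7 is induced as a feedback inhibitor that acts at the receptor. TGFBI is a secreted matrix protein named for its induction by TGF-β, and TGFB1I1 encodes Hic-5, a LIM-domain adaptor of focal adhesions that is also induced by TGF-β. In ovarian epithelium and in carcinomas the pathway is known for restraining growth in normal cells and for promoting a mesenchymal state in tumours.

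The sequences of 5 stretches are given as a description. They are the promoter of THBS1, the exon window of TGFB1I1 that chose the gene, and the distal windows of TGFBR2, SMAD3 and TGFBI described further on. Each is 300 bases of the + strand of GRCh37. Except at the THBS1 promoter, the stretch was the part of the window with the most motif matches outside untranslated regions. The matches in those stretches therefore follow from how they were picked. Capitals mark matches on either strand to the AP-1 letters TGANTCA, the TEAD letters GGAATG and the SMAD letters CAGACA.
THBS1 promoter, chr15:39873010-39873309: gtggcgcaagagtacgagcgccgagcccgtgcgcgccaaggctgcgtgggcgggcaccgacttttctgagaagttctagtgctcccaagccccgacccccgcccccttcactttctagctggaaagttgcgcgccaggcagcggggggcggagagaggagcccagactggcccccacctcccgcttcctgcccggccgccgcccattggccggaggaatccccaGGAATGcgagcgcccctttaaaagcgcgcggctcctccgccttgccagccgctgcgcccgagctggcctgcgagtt
TGFB1I1 +5.3 kb, chr16:31488576-31488875: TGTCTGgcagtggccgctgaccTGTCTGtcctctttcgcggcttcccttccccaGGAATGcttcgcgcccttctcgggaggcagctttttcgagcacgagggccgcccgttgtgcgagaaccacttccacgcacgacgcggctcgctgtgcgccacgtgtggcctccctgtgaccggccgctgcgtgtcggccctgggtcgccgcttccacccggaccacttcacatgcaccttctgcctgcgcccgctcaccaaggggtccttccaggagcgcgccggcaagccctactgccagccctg
TGFBR2 +53.2 kb, chr3:30700913-30701212: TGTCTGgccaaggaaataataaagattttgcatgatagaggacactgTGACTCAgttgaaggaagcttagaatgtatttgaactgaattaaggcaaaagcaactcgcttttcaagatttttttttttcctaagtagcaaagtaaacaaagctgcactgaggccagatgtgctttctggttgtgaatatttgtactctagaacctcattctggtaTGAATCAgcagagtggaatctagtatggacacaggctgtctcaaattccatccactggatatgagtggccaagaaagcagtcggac
SMAD3 +41.8 kb, chr15:67399514-67399813: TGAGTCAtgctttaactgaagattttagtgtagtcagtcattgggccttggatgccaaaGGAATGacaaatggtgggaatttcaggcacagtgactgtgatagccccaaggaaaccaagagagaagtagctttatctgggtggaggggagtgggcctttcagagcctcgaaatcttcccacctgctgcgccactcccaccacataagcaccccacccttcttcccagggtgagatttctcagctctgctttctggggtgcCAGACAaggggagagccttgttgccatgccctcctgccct
TGFBI +24.6 kb, chr5:135389396-135389695: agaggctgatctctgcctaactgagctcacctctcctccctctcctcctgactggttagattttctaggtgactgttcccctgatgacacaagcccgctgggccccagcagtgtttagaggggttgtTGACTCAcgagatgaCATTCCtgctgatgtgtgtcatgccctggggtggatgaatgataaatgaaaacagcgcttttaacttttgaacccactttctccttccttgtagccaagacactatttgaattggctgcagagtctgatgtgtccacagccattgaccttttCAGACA
In these names the distance is that of the window centre from the canonical start along the gene. The THBS1 stretch runs from 270 bases before to 30 bases from the start and holds 1 TEAD match. The TGFB1I1 stretch covers the end of intron 10 and coding bases of exon 11 and holds 1 TEAD and 2 SMAD matches. The TGFBR2 stretch is intronic and holds 2 AP-1 matches and 1 SMAD match. The SMAD3 and TGFBI stretches each hold 1 match to each of the 3 motifs. Over whole windows, AP-1 letters were found in 38.3% of all windows of the table and in 34.4% of the 93 windows, TEAD letters in 45.8% and 59.1%, and SMAD letters in 51.3% and 54.8%. A match of this kind is a description of the letters and not a binding site.

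The 18 libraries held between 8963079 and 60435027 reads, and the share of them inside the windows of the table was lowest in A2780, at 9.26% ± 0.832 (SD, n = 3), and highest in PEO1, at 39.9% ± 0.949. Because values were scaled to the whole library, the median window also differed between lines, from 0.682 FPKM in A2780 to 2.85 FPKM in PEO1. All windows have 1 length, so FPKM, a measure scaled to length and library size, here differ from counts by a factor for each library alone. The ovarian epithelial promoters PAX8, WT1, MSLN, EPCAM, KRT7, KRT8 and KRT18 were in the table and MUC16 was not. In PEO1 and PEO4 all 7 lay between 4.25 and 20.6 FPKM. In A2780 the lowest, PAX8, was at 0.610 FPKM and the highest, WT1, at 1.10 FPKM. The highest in CP70, KRT18, was at 1.99 FPKM. The 7 ran from 0.767 (KRT7) to 3.37 FPKM (PAX8) in PEA1 and from 1.07 (MSLN) to 4.10 FPKM (WT1) in PEA2. By rank within the line they stood at percentiles 77.7 to 96.6 in PEO1, 73.8 to 98.4 in PEO4 and 45.4 to 69.6 in A2780. The ranks were 51.9 to 75.9 in CP70, 34.35 to 87.3 in PEA1 and 28.2 to 90.1 in PEA2. Of the blood and endothelial promoters, CD68 was in the table, at 1.06 to 2.77 FPKM, and PTPRC, CD3E and PECAM1 were not. In bulk samples, fewer cells with an open site and a lower signal per cell cannot be told apart.

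How accessible the pathway was in each line was compared over the 6 line means. By FPKM, most windows of the 7 tested genes were highest in a PEO line or in PEA2: 31 of the 81 were highest in PEO1, 19 in PEA2, 16 in PEO4, 15 in PEA1 and none in A2780 or CP70. The same split over all windows of the table was 47.0% in PEO1, 26.8% in PEO4, 16.4% in PEA2, 5.30% in PEA1, 4.17% in CP70 and 0.359% in A2780. Ranked within each line, which removes the scale of the library, 39 of the 81 windows stood highest in PEA1, 20 in PEA2, 10 in PEO1, 5 each in A2780 and PEO4 and 2 in CP70. Over all windows 14.1% ranked highest in PEA1, 22.6% in PEA2, 19.9% in PEO1, 16.9% in PEO4, 14.2% in CP70 and 12.2% in A2780. The genes differed in this. All 14 windows of TGFBI were highest in PEA2 by both measures, 10 of 12 windows of TGFBR2 and 17 of 22 windows of SMAD3 were highest in PEO1 by FPKM, and 10 of 14 windows of TGFB1 in PEO4. By rank, 17 windows of SMAD3 and 12 of TGFB1 stood highest in PEA1. In the limma F test over the 6 line means, 56 of the 70 windows tested differed by more than 2 on the log2 scale at an adjusted p below 0.001, against 71.4% of all windows tested. The range between the highest and the lowest line had a median of 2.73 (log2) over all 81 windows, tested or not. Over all windows of the table it was 2.62 with no filter, and 2.51 over those with a mean above 1 FPKM.

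**Figure D1:**
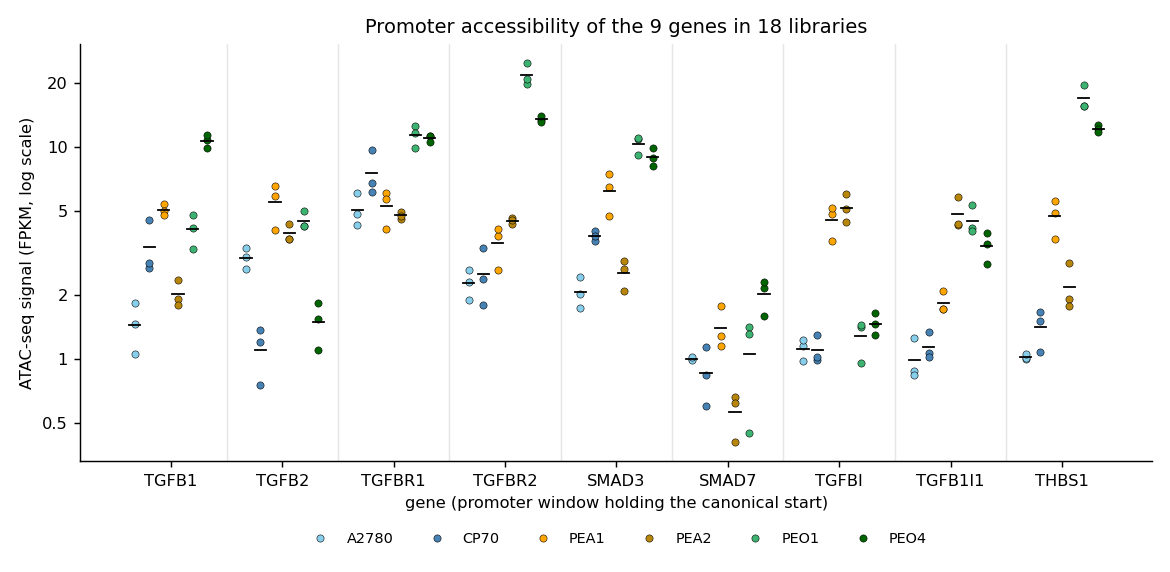
ATAC-seq signal (FPKM, log axis) of the promoter window that holds the canonical start of each of the 9 genes. Points are the 3 libraries of each line and bars their mean. The TGFBR2 and THBS1 promoters reach 21.9 and 17.0 FPKM in PEO1, and the SMAD7 window stays at or below 2.30 FPKM in every library.

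**Figure D2:**
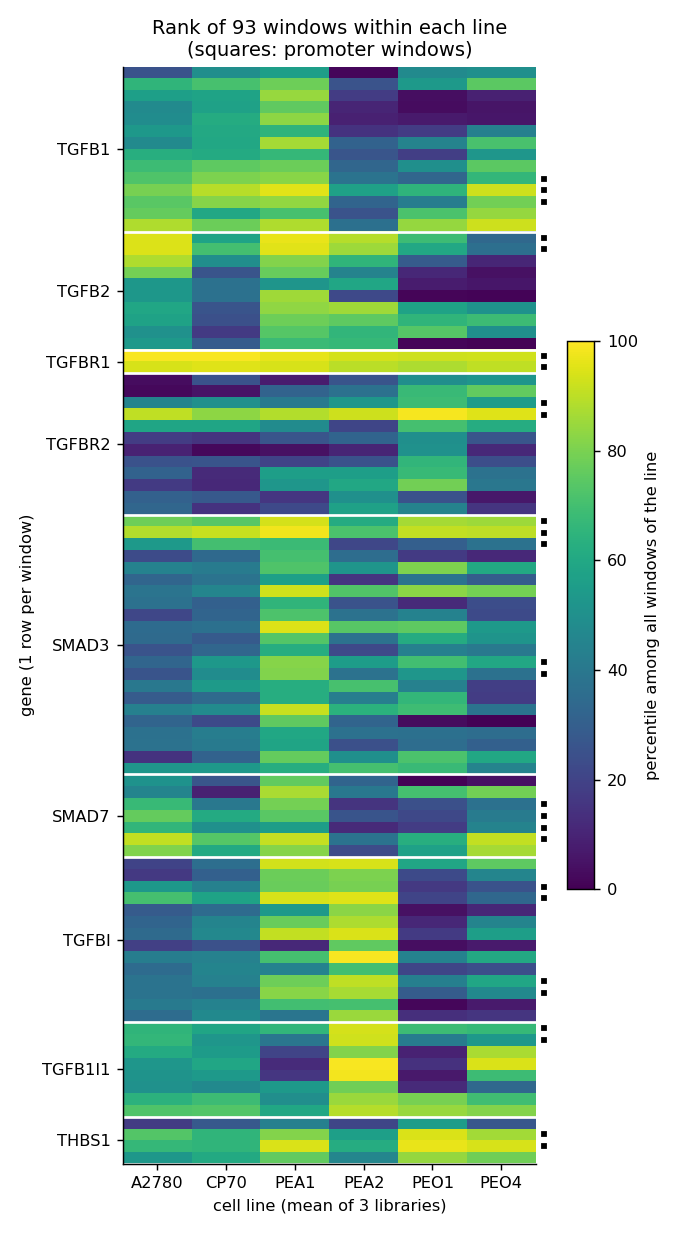
Percentile of each of the 93 windows among all windows of the same line, from the mean of 3 libraries, with 1 row per window in genome order and squares at promoter windows. The rows of TGFBI are brightest in PEA2, those of TGFB1 and SMAD3 mostly in PEA1, and both TGFBR1 rows are bright in all 6 lines.

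In CP70 against A2780, TGFB2 fell and part of the TGFB1 windows rose, while most members were too low to test. Of the 81 windows 21 had a mean above 1 FPKM in the pair and were tested, and none was called at the thresholds of the study, a log2 fold change over 2 in size and an adjusted p below 0.001, where 0.797% of all windows were called. By limma, 11 of the 21 had an unadjusted p below 0.05, none of them with a log2 fold change over 2 in size, and edgeR also called 0. At an adjusted p below 0.05 alone, 8 were higher in CP70 (background 47.5%) and 3 were lower (background 2.29%). The 8 were 5 windows of TGFB1, 2 of SMAD3 and 1 of TGFBR1, and the 3 were all the tested windows of TGFB2, with a median log2 fold change of −1.40. With the median of the 5 Mb bin around each window removed, 0 were higher and 2, both of TGFB1, were lower. The split turned to 1 higher and 8 lower once each library was centred on its median. Without A2780 replicate 3, 3 windows were higher.

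In PEA2 against PEA1, TGFB1, SMAD7 and much of SMAD3 fell and part of TGFBR2 rose, while TGFBI rose in a share of its windows near that of all windows. Of 74 windows tested 3 passed the thresholds of the study, where 12.7% of all windows did: TGFBI +13.8 kb was higher and TGFB1 +30.0 kb and +30.9 kb were lower. None passed with a pseudocount of 0.5, and edgeR called 7. At an adjusted p below 0.05, 15 windows rose (background 43%) and 37 fell (background 21.4%), with a median log2 fold change of −0.49. All 13 tested windows of TGFB1, all 6 of SMAD7 and 15 of 22 of SMAD3 fell, while 7 of 14 of TGFBI and 5 of 7 of TGFBR2 rose. Of 21 promoter windows 2 rose and 11 fell, where 17.6% and 35.7% of all promoters with a canonical start did. With median centring 9 rose and 46 fell, but with the bin median removed 17 rose and 17 fell. Without PEA2 replicate 2, 7 windows passed the thresholds of the study, and without PEA2 replicate 1 or replicate 3, 7 or 9 windows rose.

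In PEO4 against PEO1, 65 windows were tested and 2 passed the thresholds of the study (background 8.49%), both of which were lower: TGFBR2 +19.0 kb and SMAD3 +62.5 kb. Neither passed with a pseudocount of 0.5, median centring or quantile normalization, or without PEO4 replicate 1, and 1 passed with the bin median removed or with a GC correction. The table holds only windows above 2 FPKM in at least 2 libraries, and 24 of the 81 windows, among them all 5 that passed in these comparisons, reached 2 FPKM in 1 line only. Those windows entered the table through the line in which they are high, so their differences are given as a description with no p. The counts of windows given for the pairs, the lines and the differences between pairs still include them. At an adjusted p below 0.05, 15 windows rose (background 21.9%) and 28 fell (background 45.8%), with a median log2 fold change of −0.24. TGFB1 rose in 10 of 11 windows, SMAD7 in 3 of 6 and TGFBI in 2 of 10, the last a share near the background. SMAD3 fell in 14 of 19 windows, TGFBR2 in 9 of 11 and TGFB2 in 5 of 6. Of 22 promoter windows 5 rose and 6 fell, where 26.4% and 30.9% of all promoters did. With median centring the split was 25 higher and 20 lower.

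A shift shared by a whole stretch of chromosome stood beside many of these changes. The median log2 fold change of all windows was 0.59 for CP70, 0.31 for PEA2 and −0.30 for PEO4. In the 5 Mb bins that hold the genes, the median in the PEA pair was −1.14 at TGFB1, −0.94 at SMAD3, −0.65 at SMAD7, 0.69 at TGFB2, 0.25 at TGFBR2 and −0.16 at TGFBI. In the PEO pair it was −0.74 at TGFB2, −0.54 at TGFBR2, 0.59 at SMAD7 and 0.43 at TGFB1. With the bin median removed from each library, SMAD3 turned in the PEA pair from 2 windows higher and 15 lower to 7 higher and 1 lower, and TGFB2 from 1 and 3 to 0 and 8. The fall at TGFB1 in the PEA pair shrank from 13 windows to 3, and its rise in the PEO pair from 10 to 3. TGFBR2 in the PEO pair went from 9 windows lower to 5, with 1 higher. The counts of TGFBI did not move, at 7 windows higher in PEA2 and 2 higher in PEO4. Whether copy number or regulation set these shared shifts was not tested. The labels name replicates without saying that they were separate cultures, so the p-values measure only the spread between libraries.

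**Figure D3:**
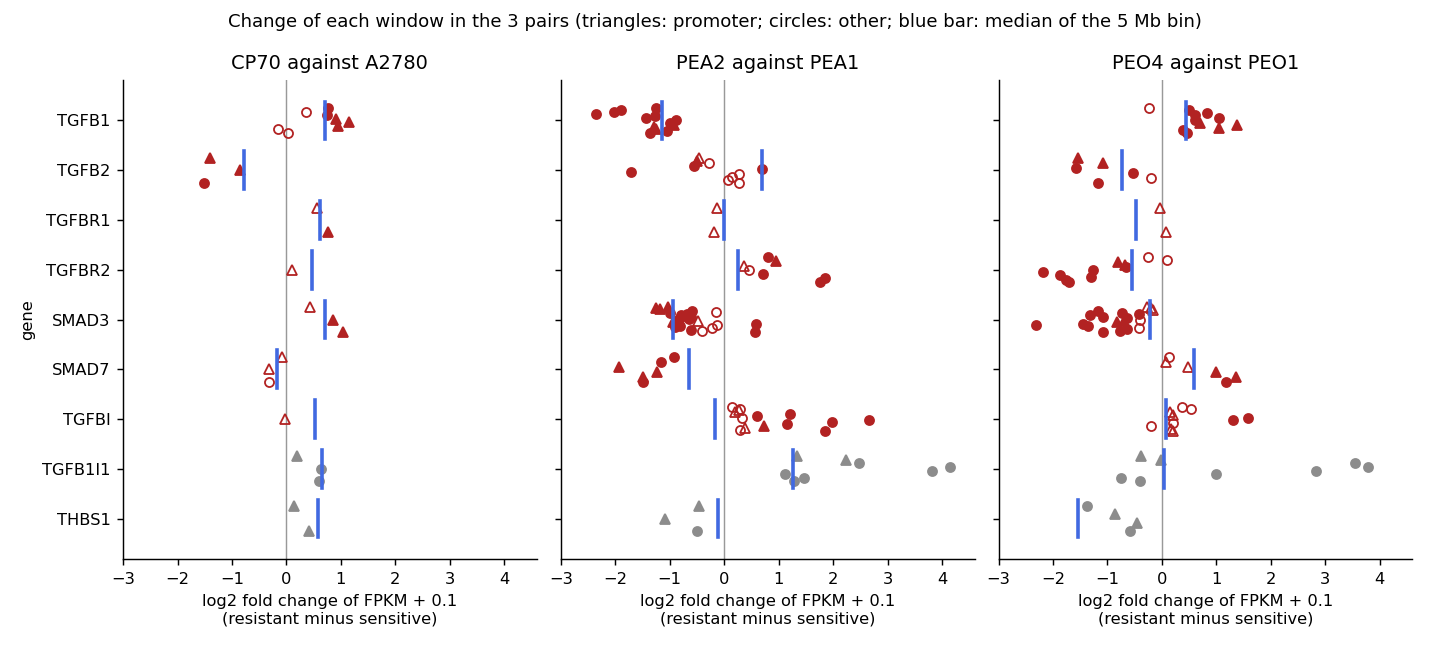
Log2 fold change of FPKM + 0.1 (resistant minus sensitive) of each tested window in the 3 pairs, by gene. Filled red symbols passed an adjusted p of 0.05, open ones did not, grey symbols (TGFB1I1, THBS1) were not tested, and the blue bar is the median of the 5 Mb bin, which at TGFB1 in the PEA pair is −1.14.

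TGFB1, the most widely expressed TGF-β ligand, had a promoter that rose in CP70 and PEO4 and fell in PEA2. The promoter window (chr19:41859000-41860000, over exon 1 on the − strand) held 1.83, 1.46 and 1.06 FPKM in A2780 and 4.55, 2.69 and 2.85 in CP70. It held 5.38, 5.02 and 4.79 FPKM in PEA1 and 1.92, 1.79 and 2.35 in PEA2, and 4.15, 3.32 and 4.79 in PEO1 against 10.8, 11.4 and 9.91 in PEO4. In each pair no library of the resistant line overlapped those of the sensitive line. The log2 fold change was 1.15 in the A2780 pair (SE 0.261, limma adjusted p = 0.000159), −1.29 in the PEA pair (SE 0.228, adjusted p = 6.11e-08) and 1.38 in the PEO pair (SE 0.141, adjusted p = 8.57e-11). After removal of the bin median the first 2 of these were 0.38 (adjusted p = 0.133) and −0.26 (adjusted p = 0.139), while the PEO value was 1.12. The A2780 value was 0.57 with median centring and the PEA value −0.59 with a GC correction, both still past the threshold. This window overlaps the gene TMEM91 as well. The ATAC-seq signal has no strand, so it cannot be assigned to TGFB1 alone.

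Inside TGFB1, 2 neighbouring intronic windows gave its largest falls in the PEA pair. TGFB1 +30.0 kb (chr19:41829300-41830300), which also lies in CCDC97, held 3.27, 3.33 and 2.06 FPKM in PEA1 and 0.495, 0.405 and 0.532 in PEA2. The libraries of the PEO lines were all low there, between 0.174 and 0.607 FPKM. The log2 fold change in the PEA pair was −2.35 (SE 0.264) at +30.0 kb and −2.02 (SE 0.272) at +30.9 kb, or −1.32 and −0.99 with the bin median removed. Both windows reached 2 FPKM in PEA1 only. The distal window with the highest mean, the intronic +2.1 kb, had log2 fold changes of 0.74 in the A2780 pair (adjusted p = 0.0123), −0.99 in the PEA pair (adjusted p = 0.000116) and 0.62 in the PEO pair (adjusted p = 0.00179). In the A2780 pair the libraries overlapped, and the value missed the threshold without A2780 replicate 2 (0.69), A2780 replicate 3 (0.70) or CP70 replicate 1 (0.45), and it was 0.16 with median centring. Removal of the bin median took the 3 values to −0.04, 0.04 and 0.35 (adjusted p = 0.0947 for the last), and none passed. With a GC correction the PEA value was −0.50 (adjusted p = 0.0654) and the PEO value 0.23 (adjusted p = 0.292). The widest range between lines was at +57.0 kb (chr19:41802300-41803300), downstream of TGFB1 within HNRNPUL1, with means from 0.178 ± 0.151 FPKM (SD, n = 3) in PEA2 to 2.72 ± 0.813 in PEO1.

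TGFB2 encodes a ligand that depends more than TGF-β1 on a co-receptor, and its promoter fell in CP70 and PEO4. The window (chr1:218518200-218519200) held 2.65, 3.33 and 3.02 FPKM in A2780 and 1.36, 1.20 and 0.754 in CP70. It held 5.90, 6.57 and 4.08 in PEA1 and 4.34, 3.70 and 3.68 in PEA2, which overlap, and 4.25, 4.97 and 4.24 in PEO1 against 1.10, 1.54 and 1.84 in PEO4. The log2 fold change was −1.40 in the A2780 pair (SE 0.253, limma adjusted p = 1.41e-06), −0.46 in the PEA pair (SE 0.228, adjusted p = 0.064) and −1.55 in the PEO pair (SE 0.201, adjusted p = 1.85e-08). Once the bin median was removed, the A2780 value became −0.49 (adjusted p = 0.0706) the PEA value −1.15 (adjusted p = 9.58e-08) and the PEO value −0.84 (adjusted p = 0.000535). The PEA value also passed with median centring (−0.83), quantile normalization (−0.58), edgeR (−0.51) and without PEA1 replicate 3 (−0.66).

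The intronic windows of TGFB2 differed in the lines that opened them. TGFB2 +35.1 kb (chr1:218553300-218554300), the widest in range between lines, held 5.87, 4.54 and 5.13 FPKM in PEO1 and 2.21, 2.30 and 2.19 in PEO4, with no overlap, and fell by 1.17 on the log2 scale (SE 0.171, adjusted p = 2e-07), or by 0.46 with the bin median removed (adjusted p = 0.00966). It differed little in the PEA pair, at 0.07 (adjusted p = 0.813), a value that turned to −0.62 with the bin median removed and to −0.57 with a GC correction. TGFB2 +21.6 kb (chr1:218539800-218540800) held 3.08, 4.42 and 2.11 FPKM in PEA1 and 0.989, 0.636 and 1.02 in PEA2, a log2 fold change of −1.71 (SE 0.243), and reached 2 FPKM in PEA1 only. In the 3 libraries of PEO1 this window held 3 reads or fewer, so no fold is given for the PEO pair.

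TGFBR1, the type I receptor kinase, had the promoter with the narrowest range between lines of the 9 genes, 1.24 on the log2 scale. Its 2 windows are both at the start, and no distal window within 10 kb of the gene was in the table. The promoter window (chr9:101866500-101867500) held 4.81, 6.04 and 4.26 FPKM in A2780, 9.70, 6.11 and 6.74 in CP70, 6.06, 5.70 and 4.12 in PEA1 and 4.95, 4.57 and 4.75 in PEA2. It held 9.91, 12.6 and 11.7 in PEO1 and 11.3, 11.2 and 10.6 in PEO4, and the libraries of the PEA and PEO pairs overlapped. Within its line the window ranked at the 92.2nd to the 99.0th percentile in all 6 lines. Log2 fold changes were 0.55 in the A2780 pair (SE 0.319, adjusted p = 0.125), −0.13 in the PEA pair (SE 0.228, adjusted p = 0.621) and −0.04 in the PEO pair (SE 0.116, adjusted p = 0.78), and none passed. These small values turned with the scaling. The PEO value was 0.30 with median centring (adjusted p = 0.013), 0.48 with the bin median removed (adjusted p = 0.000851) and −0.49 with a GC correction (adjusted p = 0.00291), and the PEA value was −0.50 with median centring (adjusted p = 0.00113) and 0.57 with a GC correction (adjusted p = 0.0309). The A2780 value was −0.17 with the bin median removed. The neighbour at +0.5 kb rose in CP70 by 0.76 (adjusted p = 0.0225), a call lost with median centring (0.18, adjusted p = 0.545).

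TGFBR2, the receptor that binds the ligand first, was most open by FPKM in the PEO lines at its promoter. FPKM carry the scale of each library. By rank within the line, the median percentile of its promoter windows was 83.5 in PEO1, 75.3 in PEO4 and 72.7 in PEA2. Over all 12 windows it was 66.6 in PEO1 and 38.6 in PEO4, below the 43.8 of PEA2. The promoter window (chr3:30647700-30648700) held 19.8, 20.9 and 25.0 FPKM in PEO1 and 13.5, 13.2 and 13.9 in PEO4. It held 1.90, 2.64 and 2.30 in A2780, 3.33, 2.39 and 1.80 in CP70, 3.81, 4.11 and 2.64 in PEA1 and 4.34, 4.62 and 4.53 in PEA2. The lines spanned 3.22 on the log2 scale (adjusted p of the F test = 5.32e-24), and every PEO library lay above every other library. The promoter fell in PEO4 by 0.68 (SE 0.104, adjusted p = 4.41e-07), a value of −0.01 with the bin median removed, and the changes of 0.10 in the A2780 pair (adjusted p = 0.736) and 0.37 in the PEA pair (adjusted p = 0.145) did not pass. The PEO value was −0.34 with median centring and −1.07 with a GC correction. Quantile normalization turned the A2780 value to −0.50 (adjusted p = 0.0321), and a GC correction raised the PEA value to 0.86 (adjusted p = 0.000864).

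Distal windows of TGFBR2 changed more than its promoter. TGFBR2 +53.2 kb (chr3:30700800-30701800), the intronic window whose sequence is given above, held 5.67, 5.93 and 6.80 FPKM in PEO1 and 2.09, 1.30 and 1.94 in PEO4. It held 1.51, 1.53 and 0.815 in PEA1 and 2.47, 1.68 and 2.17 in PEA2, and 0.180 to 0.383 over the 6 libraries of A2780 and CP70. The window fell in PEO4 by 1.75 (SE 0.183, adjusted p = 1.53e-10), or by 1.09 with the bin median removed. It rose in PEA2 by 0.71 (SE 0.244, adjusted p = 0.00714), but missed the threshold without PEA1 replicate 3 (0.43) or PEA2 replicate 1 (0.59), with median centring (0.34), quantile normalization (0.25) or the bin median removed (0.32), and was −0.21 with a GC correction. TGFBR2 +19.0 kb (chr3:30666600-30667600) held 3.44, 2.97 and 2.23 FPKM in PEO1 and 0.407, 0.576 and 0.697 in PEO4. The groups did not overlap, at a log2 fold change of −2.18 (SE 0.279), and the window reached 2 FPKM in PEO1 only. Near the 3′ end, TGFBR2 +82.9 kb (chr3:30730500-30731500) held 0.384, 0.561 and 0.623 FPKM in PEA1 and 2.69, 1.45 and 1.95 in PEA2, a rise of 1.75 (SE 0.279, adjusted p = 1.72e-09). In the PEO pair the same window held 2.02, 3.49 and 2.12 against 0.465, 0.816 and 0.847 and fell by 1.70 (SE 0.283), or by 1.03 with the bin median removed. Of the PEA and PEO libraries outside PEO1, only the PEA2 value of 2.69 was above 2 FPKM. The place of this window in the table thus rests largely on PEO1, and its fall in PEO4 is a description with no p.

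SMAD3, which carries the signal to the nucleus, was open at its promoter in every line. The window (chr15:67357800-67358800) held 1.74, 2.43 and 2.02 FPKM in A2780 and 4.02, 3.59 and 3.81 in CP70. It held 7.50, 6.45 and 4.75 in PEA1, 2.91, 2.66 and 2.09 in PEA2, 9.21, 10.9 and 11.0 in PEO1 and 8.89, 9.89 and 8.12 in PEO4. The libraries of the A2780 and PEA pairs were apart, and those of the PEO pair overlapped. Log2 fold changes were 0.86 in the A2780 pair (SE 0.275, adjusted p = 0.00719), −1.24 in the PEA pair (SE 0.227, adjusted p = 1.71e-07) and −0.21 in the PEO pair (SE 0.122, adjusted p = 0.127). The A2780 value missed the threshold without A2780 replicate 1 (0.75), and with the bin median removed the first 2 values were 0.20 (adjusted p = 0.478) and −0.39 (adjusted p = 0.0228). The A2780 call was also lost with median centring (0.28) and quantile normalization (0.30). A GC correction took the PEA value to −0.54 (adjusted p = 0.037) and the PEO value to −0.66 (adjusted p = 0.000362).

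The 17 distal windows of SMAD3 all lay in its introns. SMAD3 +41.8 kb (chr15:67399200-67400200) had the highest mean of them and held 4.49, 4.77 and 3.50 FPKM in PEA1, 2.91, 2.77 and 2.13 in PEA2, 7.49, 6.28 and 7.58 in PEO1 and 5.23, 5.18 and 5.33 in PEO4. Both pairs were apart, with falls of 0.69 in PEA2 (SE 0.228, adjusted p = 0.00502) and 0.43 in PEO4 (SE 0.137, adjusted p = 0.00625). The PEA value was −0.55 and missed the threshold without PEA2 replicate 3, and with the bin median removed it turned to 0.17, while median centring gave −1.06. The PEO call was lost with median centring (−0.08, adjusted p = 0.595), quantile normalization (−0.18, adjusted p = 0.23) and the bin median removed (−0.20, adjusted p = 0.235). SMAD3 +62.5 kb (chr15:67419900-67420900) held 3.24, 5.15 and 4.24 FPKM in PEO1 and 0.407, 0.960 and 1.05 in PEO4, a log2 fold change of −2.32 (SE 0.261), and reached 2 FPKM in PEO1 only. In the PEA pair it stayed between 1.50 and 1.76 FPKM in all 6 libraries, with a log2 fold change of −0.12 (adjusted p = 0.673). SMAD3 +85.0 kb, the widest in range, ran from 0.320 ± 0.119 FPKM in A2780 to 4.88 ± 0.796 in PEO1 and fell in PEO4 by 0.77 (adjusted p = 0.000145), or by 0.43 with median centring, while its PEA value of −0.40 (adjusted p = 0.127) turned to 0.46 with the bin median removed and passed with median centring (−0.77), quantile normalization (−0.81), a GC correction (−0.84) and without PEA1 replicate 3 (−0.64).

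SMAD7, the feedback inhibitor, fell in PEA2 and rose in PEO4. The window that holds its start (chr18:46476900-46477900) was low, with 1.28, 1.78 and 1.15 FPKM in PEA1, 0.659, 0.405 and 0.621 in PEA2, 1.42, 1.31 and 0.446 in PEO1 and 2.15, 2.30 and 1.59 in PEO4. It was higher in PEO4 by 0.99 (SE 0.302), reached 2 FPKM in PEO4 only and is given with no p. In the other pairs its mean was below the minimum for a test. The signal was stronger just upstream. SMAD7 −1.0 kb (chr18:46477800-46478800) held 4.49, 4.33 and 3.21 FPKM in PEA1 and 1.15, 1.16 and 1.82 in PEA2, and 2.63, 5.32 and 3.46 in PEO1 against 10.5, 10.4 and 7.82 in PEO4. Both pairs were apart, and in opposite directions. It fell by 1.49 in PEA2 (SE 0.232, adjusted p = 6.95e-10) and rose by 1.35 in PEO4 (SE 0.170, adjusted p = 1.03e-08), or −0.93 and 0.79 with the bin median removed. The A2780 and CP70 libraries overlapped there, at −0.33 (adjusted p = 0.26), or −0.90 with median centring (adjusted p = 0.000724). The next window, −1.9 kb, moved alike, by −1.50 in the PEA pair (adjusted p = 4.43e-09) and 1.17 in the PEO pair (adjusted p = 5.26e-07), and by −0.93 and 0.61 with the bin median removed. In the gene, +8.0 kb over exon 3 fell in PEA2 by 1.16 (adjusted p = 2.5e-06), or by 0.60 with the bin median removed. It was at 0.12 in the PEO pair (adjusted p = 0.467), which became −0.44 with the bin median removed (adjusted p = 0.00891) and 0.47 with median centring (adjusted p = 0.00458).

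TGFBI, the secreted target, was open in the PEA lines and most of all in PEA2. Its promoter (chr5:135364500-135365500) held 4.81, 5.17 and 3.60 FPKM in PEA1 and 5.99, 4.45 and 5.10 in PEA2. The other lines held 0.976, 1.15 and 1.22 in A2780, 0.985, 1.02 and 1.30 in CP70, 1.42, 0.960 and 1.45 in PEO1 and 1.45, 1.30 and 1.64 in PEO4. Every PEA library lay above every other library, while the 2 lines of each pair overlapped. The change was 0.20 in the PEA pair (SE 0.228, adjusted p = 0.454), 0.20 in the PEO pair (SE 0.266, adjusted p = 0.514) and −0.02 in the A2780 pair (SE 0.273, adjusted p = 0.943). The PEA value passed with a GC correction (0.90, adjusted p = 0.000438) and the PEO value with quantile normalization (0.65, adjusted p = 0.0319). Differences between PEA2 and PEA1 appeared in the gene body. TGFBI +24.6 kb (chr5:135388800-135389800, over exons 8 and 9) held 2.08, 2.24 and 1.82 FPKM in PEA1 and 10.4, 6.59 and 8.39 in PEA2, a rise of 1.97 (SE 0.227, adjusted p = 4.99e-17). The PEO lines overlapped there, with 3.34, 2.62 and 1.67 FPKM in PEO1 and 3.20, 2.74 and 2.64 in PEO4 (0.21, SE 0.209, adjusted p = 0.378, but 0.55 and past the threshold with median centring).

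The intronic window TGFBI +13.8 kb (chr5:135378000-135379000) entered the table through PEA2, the only line in which it reached 2 FPKM, so its values are a description. It held 3.90, 1.91 and 2.44 FPKM in PEA2, 0.417, 0.436 and 0.192 in PEA1 and 0.111 to 0.523 over the 12 libraries of the other lines. The log2 fold change was 2.66 (SE 0.284), or 2.44 with the bin median removed. Upstream, TGFBI −8.7 kb had the highest mean of the distal windows and did not pass in the PEA pair (0.14, adjusted p = 0.607) or the PEO pair (0.38, adjusted p = 0.0571, but past the threshold at 0.72 with median centring, 0.69 with quantile normalization, 0.56 with a GC correction and 0.61 without PEO1 replicate 1). In PEO4 the rises were at +8.4 kb (1.58, SE 0.304, adjusted p = 2.22e-05) and at chr5:135376200-135377200 (1.31, SE 0.252, adjusted p = 2.32e-05), both intronic. At +8.4 kb PEO1 held 0.506, 0.436 and 1.00 FPKM and PEO4 2.15, 1.82 and 2.09.

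TGFB1I1 was selected on the exon window at +5.3 kb (chr16:31488300-31489300, over exons 10 and 11), so its values are a description. The window held 10.3, 6.30 and 7.85 FPKM in PEA2 and 13.1, 12.6 and 11.9 in PEO4. The paired sensitive lines held 0.481, 0.374 and 0.240 in PEA1 and 0.708, 0.873 and 0.892 in PEO1, and in the A2780 pair 0.732, 0.608 and 0.827 in A2780 and 0.909, 1.62 and 0.921 in CP70. In all 3 pairs each resistant library lay above each sensitive library, although CP70 stayed far below PEA2 and PEO4. The log2 fold change was 4.15 for PEA2 (SE 0.239) and 3.78 for PEO4 (SE 0.172), and with the bin median removed 2.83 and 3.89. Within its line the window stood at the 99.0th percentile in PEA2 and the 94.4th in PEO4, against the 12.4th in PEA1 and the 14.2nd in PEO1. In order of level, PEO4 stood above PEA2 and PEA2 above CP70 with no overlap, PEO1 and A2780 overlapped, and PEA1 was lowest.

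The neighbours of that window shared the pattern to a lesser degree. TGFB1I1 +4.4 kb, over exons 8 to 10, averaged 0.492 ± 0.114 FPKM in PEA1 and 3.13 ± 0.0146 in PEA2, and 0.566 ± 0.0894 in PEO1 and 7.67 ± 0.363 in PEO4. TGFB1I1 +6.2 kb, over the end of exon 11, averaged 0.417 ± 0.155 and 7.03 ± 1.63 FPKM in PEA1 and PEA2 and 0.424 ± 0.112 and 3.55 ± 0.254 in PEO1 and PEO4. PEO4 was thus higher than PEA2 at +4.4 kb and lower at +6.2 kb. Each window shares 101 bp with its neighbour, so adjacent values are not independent.

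The promoter of TGFB1I1 did not follow its exon window. It held 2.08, 1.71 and 1.73 FPKM in PEA1 and 5.83, 4.28 and 4.35 in PEA2, but 4.15, 5.32 and 4.01 in PEO1 and 2.79, 3.94 and 3.49 in PEO4. The libraries were apart upwards in the PEA pair and downwards in the PEO pair. In A2780 it held 1.26, 0.879 and 0.843 and in CP70 1.06, 1.02 and 1.34, which overlap. The log2 fold changes were 1.33 (SE 0.229) in the PEA pair, −0.39 (SE 0.170) in the PEO pair and 0.19 (SE 0.279) in the A2780 pair. The bin of TGFB1I1 had a median of 1.27 in the PEA pair, and with it removed the promoter value there was 0.00, while the A2780 value became −0.47, and −0.39 with median centring. The PEO value was −0.05 with median centring and −0.84 with a GC correction. The windows at +12.5, +15.2 and +16.1 kb lie in the neighbouring gene SLC5A2. All 8 windows were higher in every PEA2 library than in every PEA1 library, and in the PEO pair 4 were higher, 3 lower and 1 overlapped. The share of all windows whose libraries were apart was not counted, so these counts have no background. By the other measure, limma at an adjusted p below 0.05, 43% of all windows tested were higher in PEA2. In PEO4 21.9% were higher and 45.8% lower.

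**Figure D4:**
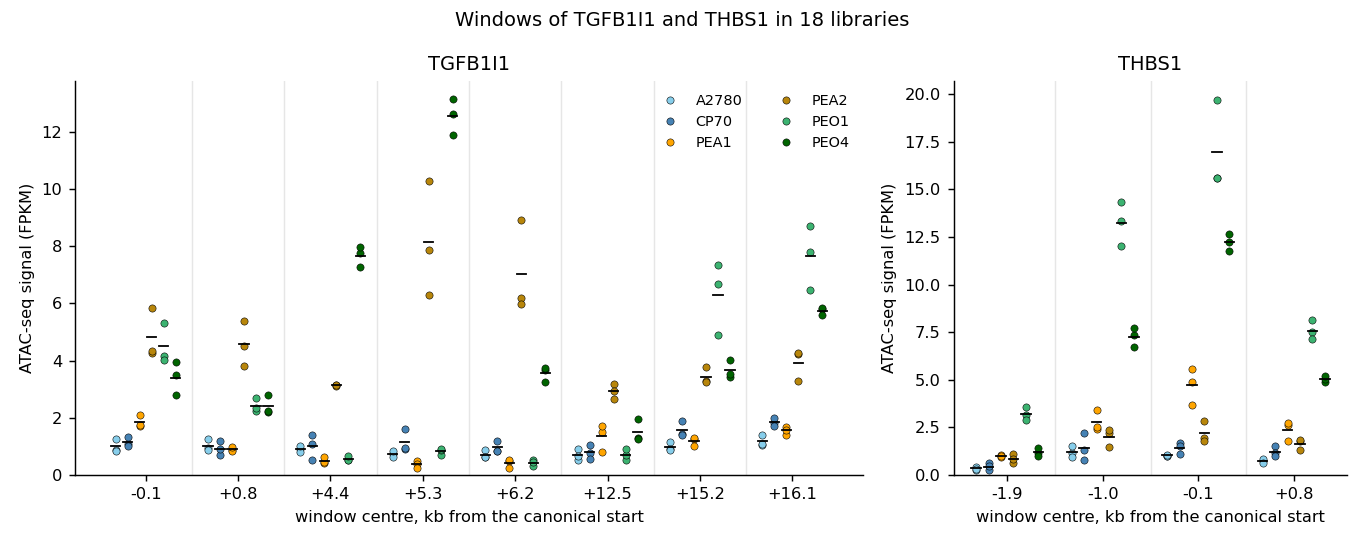
ATAC-seq signal (FPKM) of the 8 windows of TGFB1I1 and the 4 of THBS1, by distance of the window centre from the canonical start (kb); points are libraries and bars the mean of 3. At TGFB1I1 from +4.4 to +6.2 kb PEA2 and PEO4 stand above the other 4 lines, and at THBS1 PEO1 is highest in all 4 windows.

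THBS1, whose product is among the proteins that can release latent TGF-β, was most open in PEO1 at all 4 of its windows, by FPKM and by rank within the line. By rank PEO4 was not next throughout: the median percentile of the distal windows was 69.77 in PEO1, 59.82 in PEA1 and 52.65 in PEO4. The promoter (chr15:39872700-39873700, over exon 1) held 19.7, 15.6 and 15.6 FPKM in PEO1 and 12.7, 12.2 and 11.8 in PEO4. It held 5.57, 4.86 and 3.69 in PEA1 and 1.92, 2.83 and 1.77 in PEA2, and 0.994, 1.01 and 1.06 in A2780 against 1.67, 1.08 and 1.51 in CP70. No 2 lines overlapped, in the order PEO1, PEO4, PEA1, PEA2, CP70 and A2780. PEA2 and PEO4 were lower than the lines they were paired with, and CP70 was higher than A2780. The log2 fold change was −1.09 in the PEA pair (SE 0.228), −0.46 in the PEO pair (SE 0.110) and 0.42 in the A2780 pair (SE 0.264). The sign in the A2780 pair turned under 3 scalings, to −0.16 with median centring, −0.09 with quantile normalization and −0.19 with the bin median removed. The bin of THBS1 fell by a median of 1.53 in PEO4, and with it removed the promoter value of the PEO pair turned to 1.05. With a GC correction it was −0.91, and the PEA value −0.60. At +0.8 kb, over exons 2 and 3, the values were −0.51 for PEA2 and −0.58 for PEO4, and the latter was 0.93 with the bin median removed. The former was −0.88 with median centring and −0.17 with a GC correction.

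Whether a gene changed differently in the pairs was tested as the difference between their log2 fold changes, over the 7 genes. Between the PEA and PEO pairs 20 of 77 windows differed by more than 2 at an adjusted p below 0.001 (background 26.6%): 7 of TGFB1 and 4 of SMAD7, all lower in the PEA pair, and 6 of TGFBR2, 2 of SMAD3 and 1 of TGFBI, all higher in it. The largest were TGFBR2 +82.0 kb at 3.73 (SE 0.481, limma adjusted p = 4.69e-09) and SMAD7 −1.0 kb at −2.84 (SE 0.302, adjusted p = 3.1e-11). When the A2780 pair was set against the PEA pair, the count was 9 of 65 (background 12.8%), 7 of TGFB1 and 2 of SMAD3, all higher in the A2780 pair. Between the A2780 and PEO pairs 2 of 61 differed (background 8.12%), SMAD3 +61.6 kb by 2.16 (SE 0.406, adjusted p = 5.17e-05) and +62.5 kb by 2.62 (SE 0.431), the latter a window above 2 FPKM in PEO1 only. Without CP70 replicate 3 or PEO1 replicate 2 that count was 1. The 3 counts were 6, 1 and 0 with the bin median removed. The 3 comparisons share libraries, each pair entering 2 of them. The counts include windows that entered the table through 1 line only, such as SMAD7 −0.1 kb, and for these they are a description.

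**Figure D5:**
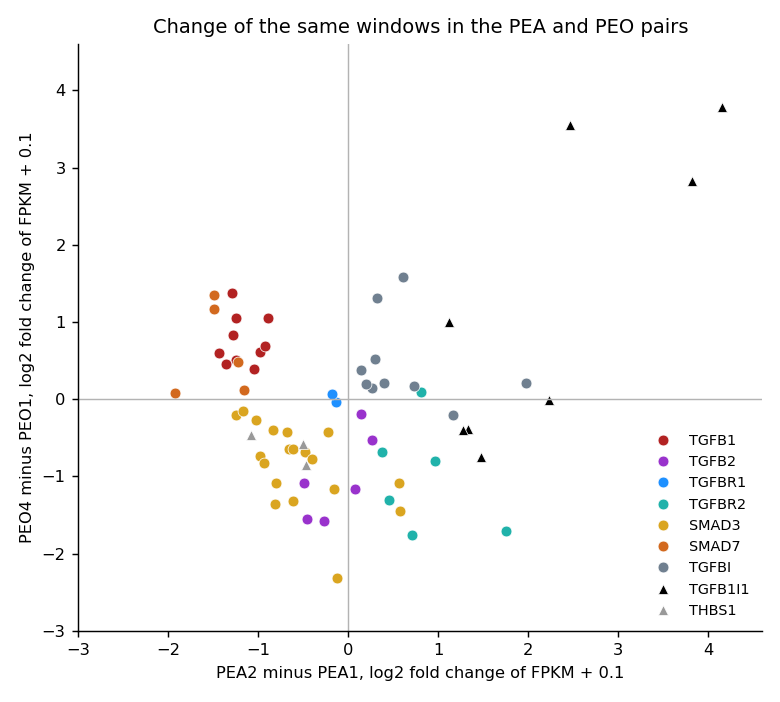
Log2 fold change of FPKM + 0.1 in the PEA pair (horizontal) and the PEO pair (vertical) for the windows above the minimum mean in both. TGFB1 and SMAD7 lie at the upper left, TGFBR2 mostly at the lower right, SMAD3 mostly at the lower left, and the exon windows of TGFB1I1 at the upper right, up to 4.15 and 3.78.

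The rest of the pathway was read from a list of 51 other genes, each by the promoter window that holds its canonical start. Of these, 45 were in the table and INHBA, GDF15, ITGB6, ACVRL1, DCN and COL1A1 were not. By limma at an adjusted p below 0.05, 16 of 42 tested promoters were higher in CP70 and none was lower (also none at an unadjusted p below 0.05, and none by edgeR), where 43.9% and 1.48% of all promoters were. In PEA2, 3 of 42 were higher and 18 lower (all promoters 17.6% and 35.7%), and in PEO4 15 of 43 were higher and 12 lower (26.4% and 30.9%). The median log2 fold change was 0.54, −0.42 and 0.07 in the A2780, PEA and PEO pairs, beside 0.58, −0.23 and −0.02 for all promoters. None passed the thresholds of the study in any pair by limma or edgeR, and 18, 23 and 27 had an unadjusted p below 0.05. With median centring the splits were 3 higher and 6 lower, 1 and 31, and 26 and 5, and with the bin median removed 0 and 3, 1 and 33, and 19 and 1. A GC correction moved them the other way, to 11 higher and 9 lower in PEA2 and 6 higher and 21 lower in PEO4. The count higher in CP70 was 9 without A2780 replicate 1 and 5 without A2780 replicate 3, the count lower was 2 without CP70 replicate 1, and the count higher in PEA2 was 1 without PEA2 replicate 1.

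By role, 5 of 6 SMAD promoters were lower in the PEA pair, with a median of −1.20, and 7 of 10 target genes, with a median of −0.68, where 35.7% of all promoters were lower and the median was −0.23. SMAD2 and SMAD4 lie in the same 5 Mb bin as SMAD7, whose median was −0.65. SMAD6, at −1.13 in the PEA pair, lies in the bin of SMAD3, whose median was −0.94. The SMAD2 promoter, that of the partner of SMAD3, fell in PEA2 by 1.61 (adjusted p = 9.22e-12), or by 1.05 with the bin median removed and by 0.91 with a GC correction, while the promoter of the ligand gene BMP4 rose by 1.65 (adjusted p = 1.51e-07), or by 0.87 with quantile normalization. In CP70 the matrix target CCN2 rose by 1.79 (adjusted p = 1.65e-10) and the pseudoreceptor BAMBI by 1.16 (adjusted p = 0.00041), but with the bin median removed these were 0.41 (adjusted p = 0.125) and 0.43 (adjusted p = 0.0796). In PEO4 the cell-cycle inhibitor CDKN1A rose by 1.56 (adjusted p = 1.02e-10), or by 0.77 with the bin median removed, and FKBP1A, whose product binds the type I receptor, fell by 1.30 (adjusted p = 2.47e-08), or by 0.08 with the bin median removed (adjusted p = 0.685).

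The genes whose promoters were most like the 2 described genes were sought by Pearson correlation of log2 values over the 18 libraries, as a description. For TGFB1I1 +5.3 kb, among 12981 promoters on other chromosomes, these were NUPR2 (r = 0.92), TIMP3 (0.89) and GPR132 (0.89). NUPR2 averaged 2.40 FPKM in PEA2 and 2.22 in PEO4 and 0.524 to 0.790 in the other lines. For the THBS1 promoter, among 13137 promoters, they were FREM2, ELF3 and PRAG1, each at r = 0.98. ELF3 averaged 19.9 FPKM in PEO1, 15.8 in PEO4 and 7.06 in PEA1. The 18 points are 6 lines with 3 libraries each, and they share the scale of each library, which was highest in the PEO lines.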

How the data were processed

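ATAC-seq was measured in 18 libraries of 6 lines. According to the submitters' notes and the study's methods, the authors aligned reads to hg19 with Bowtie2 and removed duplicates with Picard, with versions not given in the sources used here. They counted reads in windows of 1 kb, and the deposited values are named FPKM. Since all windows have the same length (1001 bp as counted, in steps of 900 bp), the deposited values equal RPM up to a constant, and 100.0% of values gave whole reads within 0.01. Each of the 89428 windows exceeded 2 FPKM in at least 2 libraries.

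Windows were assigned to genes with GENCODE release 44 mapped to GRCh37. The members and lists were chosen with earlier results of these data known. Values were tested as log2(FPKM + 0.1), a scale that understates changes of low windows, with limma 3.58.1 (trended variance, R 4.3.3) over all windows with a mean above 1 FPKM in the libraries compared, and p-values were adjusted by Benjamini-Hochberg over all of these. The thresholds of the study (log2 fold change over 2 in size, adjusted p below 0.001) and an adjusted p below 0.05 were used. Pairs were fitted separately, and the lines and the differences between pairs over their own libraries. The study used voom, which needs counts, and the trend fit stood in for it. edgeR 4.0.16 was run on the recovered reads as an alternative. Scripts used Python 3.11.15, pandas 2.3.3 and numpy 2.4.6, and the fits were tested on simulated data.

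Windows were named by rule: the promoter window of each gene, its distal windows with the highest mean and the widest range between lines, and the TGFB1I1 window behind the choice of that gene. The 5 windows that passed the thresholds of the study and the neighbours of named windows were named after their values were seen. Alternatives were pseudocount, filter, scaling, the median of 5 Mb bins removed, GC correction, edgeR, replicate block, extent of the gene and leaving out each library. Depth bears on counting error only. Molecular identifiers are not mentioned in the sources used here, so reads may not be independent molecules.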

Additional observations from a re-analysis of the deposited data

Results flagged for a closer look

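At 7 named comparisons the change in the resistant line differed between pairs by a log2 difference of more than 2. For all but SMAD7 −0.1 kb, the adjusted p of limma's test of the difference itself is given and was below 0.001. SMAD7 −0.1 kb is a description only. At the TGFB1 promoter (+0.3 kb) the fold change in the PEA pair was lower than that in the PEO pair by a log2 difference of −2.67 (SE 0.254, adjusted p = 1.53e-12), and that in the A2780 pair was higher than that in the PEA pair by 2.44 (SE 0.339, adjusted p = 8.48e-10). With the bin median removed these were −1.45 (adjusted p = 3.14e-06) and 0.61 (adjusted p = 0.0399). At TGFB1 +57.0 kb, which lies in HNRNPUL1, the PEA pair differed from the PEO pair by −2.33 (SE 0.419, adjusted p = 4.35e-06), or −1.11 with the bin median removed (adjusted p = 0.0306). PEA2 was near the floor there, and in the PEA pair alone the window was below the minimum mean for a test. The size of this difference thus depends in part on the added 0.1 FPKM.

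TGFBR2 +53.2 kb rose in PEA2 and fell in PEO4, a difference of 2.46 (SE 0.322, adjusted p = 6.51e-09), or 0.93 with the bin median removed (adjusted p = 0.00358). The rise in PEA2 alone lost its call with median centring, quantile normalization or the bin median removed. With a GC correction the PEA value was −0.21. The SMAD3 promoter (+0.4 kb) differed by 2.11 between the A2780 and PEA pairs (SE 0.340, adjusted p = 7.78e-08), by 0.63 with the bin median removed (adjusted p = 0.0391) and by 1.33 with a GC correction (adjusted p = 0.00129).

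SMAD7 differed between the PEA and PEO pairs at −0.1 kb by −2.18 (SE 0.428) and at −1.9 kb by −2.66 (SE 0.304, adjusted p = 2.16e-10). With the bin median removed these were −1.13 and −1.62 (adjusted p = 3.48e-05), and the former was −1.38 with a GC correction. The window at −0.1 kb reached 2 FPKM in PEO4 only and entered the table through that line, so its difference is given with no p.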

How the results depend on the processing

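Counts are given here as reported, then under each alternative, and the cause of a change was not tested unless named. The counts of windows past the thresholds of the study in the PEA pair (3) and the PEO pair (2) were 0 and 0 with a pseudocount of 0.5, 6 and 0 with median centring, 7 and 0 with quantile normalization and 5 and 6 with genes extended by 50 kb. The PEO count was 1 with the bin median removed and 1 with a GC correction, edgeR gave 7 for the PEA pair, and median centring gave 1 for the A2780 pair (0). With a minimum mean of 5 FPKM, which leaves few windows to test, the counts were 0 for the PEA and PEO pairs, the windows higher and lower were 0 and 0 for CP70, 1 and 0 for PEA2 and 5 and 2 for PEO4, 2 differed among lines, and 1, 0 and 0 differed between pairs.

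For CP70, 8 windows higher and 3 lower became 13 and 8 with no filter, 1 and 8 with median centring and 1 and 9 with quantile normalization, and 0 were higher with the bin median removed. For PEA2, 15 higher became 9 with median centring and 9 with quantile normalization, and 37 lower became 17 with the bin median removed. For PEO4, 15 higher became 25 with median centring, 24 with quantile normalization and 31 with genes extended by 50 kb. The 56 windows that differed among lines became 31 with median centring, 37 with quantile normalization and 18 with the bin median removed.

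Differences between the PEA and PEO pairs (20), the A2780 and PEA pairs (9) and the A2780 and PEO pairs (2) were 8, 2 and 1 with a pseudocount of 0.5 and 6, 1 and 0 with the bin median removed. A GC correction gave 9 and 5 for PEA against PEO and for A2780 against PEA, median centring gave 4 for A2780 against PEA, genes extended by 50 kb gave 14 and 7 for the comparisons with A2780, and edgeR gave 4 for A2780 against PEO.

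Among the other pathway promoters, 16 higher and 0 lower in CP70 became 10 higher with no filter, 3 and 6 with median centring, 4 and 8 with quantile normalization and 0 and 3 with the bin median removed. In PEA2, 3 higher and 18 lower became 1 and 31 with median centring, 28 lower with quantile normalization, 1 and 33 with the bin median removed and 11 and 9 with a GC correction. In PEO4, 15 higher and 12 lower became 26 and 5 with median centring, 7 lower with quantile normalization, 1 lower with the bin median removed and 6 and 21 with a GC correction. With a minimum mean of 5 FPKM, 0 were higher in CP70, 0 higher and 2 lower in PEA2 and 7 lower in PEO4.

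Leaving out 1 library at a time moved the windows past the thresholds of the study from 0 to 0 in the A2780 pair, 2 to 7 in the PEA pair and 0 to 3 in the PEO pair. Windows higher and lower ranged from 3 to 8 and 2 to 4 for CP70, from 7 to 16 and 29 to 40 for PEA2 and from 14 to 16 and 25 to 30 for PEO4. Other pathway promoters ranged from 5 to 15 and 0 to 2 for CP70, from 1 to 4 and 15 to 25 for PEA2 and from 12 to 16 and 8 to 12 for PEO4. Windows differing among lines ranged from 53 to 59, and between pairs from 15 to 21, 7 to 13 and 1 to 3. These libraries are named in the report where they decided a count.

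Of 70 single values, 20 kept their call and direction under every alternative run, 25 changed sign under at least 1, and in 15 of these a value that passed, or a described value beyond the spread of its libraries, was involved. With the bin median removed, log2 fold changes turned at THBS1 −0.1 kb (−0.19 for CP70 and 1.05 for PEO4), THBS1 +0.8 kb (0.93 for PEO4), TGFB1 +2.1 kb (−0.0365 for CP70 and 0.0446 for PEA2), TGFB2 +32.4 kb (−0.55 for PEA2 and 0.52 for PEO4), TGFB2 +35.1 kb (−0.62 for PEA2), TGFBR1 −0.4 kb (0.48 for PEO4), SMAD3 +41.8 kb (0.17 for PEA2), SMAD3 +85.0 kb (0.46 for PEA2) and SMAD7 +8.0 kb (−0.44 for PEO4). With a GC correction TGFB2 +35.1 kb was −0.57, TGFBR1 −0.4 kb 0.57 and TGFBR2 +53.2 kb −0.21 for PEA2. With median centring THBS1 −0.1 kb was −0.16 for CP70 and TGFBR1 −0.4 kb 0.30 for PEO4, and with quantile normalization THBS1 −0.1 kb was −0.0919 and TGFBR2 +0.1 kb −0.50 for CP70.

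The replicate numbers did not pair the libraries: the correlation of deviations between libraries of the same number was −0.158, −0.127 and 0.0643 in the A2780 pair, 0.0247, −0.115 and −0.00165 in the PEA pair and 0.0240, 0.0312 and 0.0383 in the PEO pair. With the replicate number as a block, 0, 3 and 2 windows passed the thresholds of the study, and windows higher and lower were 8 and 3, 15 and 36, and 17 and 29. TGFBI −8.7 kb passed in PEO4 under the block (adjusted p = 0.0333), and no count moved by over 1.5 times.

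A2780 and CP70 left most windows under the minimum mean, with between 8.38% and 15.6% of their reads in windows. The A2780 libraries had the highest totals, so in A2780 this did not come with low depth. PEO1, with the lowest totals, held 3 reads or fewer in all libraries at TGFB2 +21.6 kb, TGFB2 +53.1 kb, SMAD7 +20.6 kb and TGFBI +38.1 kb.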
